A study of Mus musculus with 8 samples.

Results

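The genes described here encode the coactivators YAP (Yap1) and TAZ (Wwtr1), the DNA-binding factors TEAD1 to TEAD4 (Tead1, Tead2, Tead3, Tead4) and the TEAD cofactors of the vestigial-like family (Vgll1, Vgll3, Vgll4). They were taken by gene symbol, and all 9 were found among the 56691 rows of the count table. Vgll2, the remaining vestigial-like gene, had 0 counts in every library and is not among the 9. Bulk RNA sequencing was done on 8 cultures of organoids, 3-dimensional epithelial cultures from mouse hindstomach (the glandular stomach) isolated at embryonic day 18.5. The 4 YAP5SA cultures had the genotype Shh-Cre;YAP5SA, and the 4 Ctrl cultures had the genotype Shh-Cre. All 8 had been kept in growth medium for 5 days and then in differentiation medium for 7 days, and all carry the Shh-Cre allele, which expresses Cre recombinase where Shh is active, the gut epithelium among other tissues. YAP5SA is a form of YAP in which serines that receive the inhibitory phosphate are replaced by alanine. The sources used here do not give the promoter that drives it, the species of its coding sequence, or how many embryos the 4 cultures of a group came from. P-values therefore measure only the spread between these samples, which may be technical.

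When the Hippo kinases are active, LATS1 and LATS2 phosphorylate YAP and TAZ, which are then held in the cytoplasm or degraded. When the kinases are inactive, YAP and TAZ enter the nucleus. Neither binds DNA itself. They bind TEAD factors, which recognise the M-CAT element, and the VGLL proteins bind the same face of TEAD. In epithelia of the gut, YAP and TAZ are known for their part in progenitor growth and regeneration.

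The libraries held 17387372 to 25841256 counts, and 13812 genes passed the filter on low counts, all 9 members among them. A gene was called at an edgeR adjusted p under 0.05, and the median log2 fold change of all tested genes was 0.02. Sex-linked transcripts differed as completely as genotype. Xist, an RNA of the inactive X, had 0 to 8 counts in YAP5SA libraries and 8436 to 12237 in Ctrl libraries. The Y-borne genes Ddx3y, Eif2s3y, Kdm5d and Uty had 880 to 3854 counts in each YAP5SA library and 0 in each Ctrl library. For every value below, a difference by genotype and a difference by sex cannot be told apart.

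Most genes for YAP, TAZ, TEAD and VGLL factors were higher in YAP5SA organoids, by unequal amounts. Of the 9 genes, 7 were called higher, 0 lower, and Tead2 and Tead3 were not called. Among the 7, Vgll1 passed the filter on low counts through its YAP5SA libraries only. Of all tested genes, 64.5% were called, 33.1% higher and 31.3% lower, and the count of 7 is a description beside these, since the genes were chosen with earlier results of these data known. The groups did not overlap for the 7 genes called, all with YAP5SA above Ctrl, and overlapped for Tead2 and Tead3. Of all tested genes, 58.7% had groups that did not overlap, 30.4% with YAP5SA above Ctrl and 28.3% with YAP5SA below. The median log2 fold change of the 9 was 1.28, that of Tead4, and it stays there with Vgll1 at its lower bound. The order by fold was Vgll1, which was counted in no Ctrl library, then Tead1, Vgll3, Vgll4, Tead4, Wwtr1 and Yap1. In bulk samples, fewer cells of a type and less RNA per cell cannot be told apart.

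**Figure D1:**
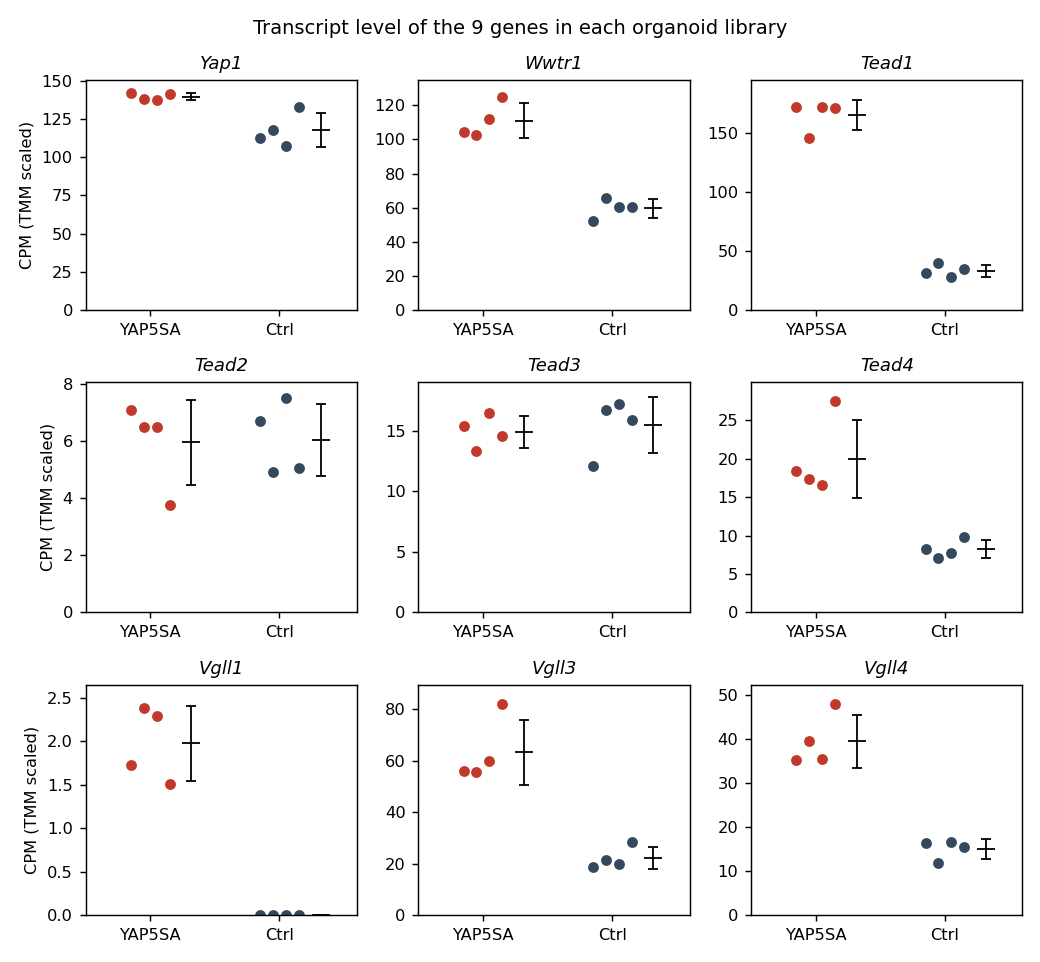
Level of each gene in each library, in CPM (counts scaled to the library size, with TMM factors), with YAP5SA on the left and Ctrl on the right of each panel. Points are libraries in replicate order, and the bar is the mean with its SD (n = 4 each). Apart from Tead2 and Tead3, every YAP5SA library lies above every Ctrl library.

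Promoter sequences are shown with the M-CAT letters that TEAD factors recognise marked. RefSeq windows from 250 bases before to 50 bases after a gene start (GRCm38.p6, matched by symbol) were found for 7 of the 9 genes, 10 windows in all, and searched for CATTCC and for GGAATG, its reverse complement. At least 1 match was found in 8 of the 10 windows and in 6 of the 7 genes. Windows of the same gene overlapped, and both Wwtr1 windows held the same match, which is counted in each. Over all 32851 windows of this length 14.7% held a match, and over all 27025 genes 16.6% had a match in some window. These shares were not matched to the members for base composition or for the number of windows per gene. Tead2 had none, and Tead1 and Tead4 are not shown. Each sequence is given 5′ to 3′ on the gene's own strand, with the matches in capitals.
Yap1, chr9:8004547-8004846, minus strand: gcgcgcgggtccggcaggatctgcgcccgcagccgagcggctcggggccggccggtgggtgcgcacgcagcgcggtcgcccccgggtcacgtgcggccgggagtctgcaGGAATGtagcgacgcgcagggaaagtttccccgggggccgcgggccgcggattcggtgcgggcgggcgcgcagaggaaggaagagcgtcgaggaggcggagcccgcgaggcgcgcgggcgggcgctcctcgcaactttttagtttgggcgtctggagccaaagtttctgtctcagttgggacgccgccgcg
Wwtr1, chr3:57575861-57576160, minus strand: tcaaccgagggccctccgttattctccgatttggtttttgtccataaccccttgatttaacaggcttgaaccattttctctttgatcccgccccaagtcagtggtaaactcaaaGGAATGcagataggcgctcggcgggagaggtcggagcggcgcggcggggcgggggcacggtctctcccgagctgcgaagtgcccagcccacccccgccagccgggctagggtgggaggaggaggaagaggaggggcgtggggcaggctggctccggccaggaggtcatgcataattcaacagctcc
Tead3, chr17:28350551-28350850, minus strand: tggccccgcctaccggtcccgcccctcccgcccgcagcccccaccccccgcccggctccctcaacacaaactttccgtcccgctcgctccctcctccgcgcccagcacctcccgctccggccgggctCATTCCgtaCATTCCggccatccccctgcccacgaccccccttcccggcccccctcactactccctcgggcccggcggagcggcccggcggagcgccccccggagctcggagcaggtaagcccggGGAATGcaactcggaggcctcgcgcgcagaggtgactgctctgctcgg
Vgll1, chrX:57087856-57088155, plus strand: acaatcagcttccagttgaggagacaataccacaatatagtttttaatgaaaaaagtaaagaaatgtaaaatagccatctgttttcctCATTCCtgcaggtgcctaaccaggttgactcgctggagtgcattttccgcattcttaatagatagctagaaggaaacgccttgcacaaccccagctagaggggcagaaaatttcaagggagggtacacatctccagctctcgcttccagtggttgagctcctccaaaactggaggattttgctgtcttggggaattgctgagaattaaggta
Vgll3, chr16:65814939-65815238, plus strand: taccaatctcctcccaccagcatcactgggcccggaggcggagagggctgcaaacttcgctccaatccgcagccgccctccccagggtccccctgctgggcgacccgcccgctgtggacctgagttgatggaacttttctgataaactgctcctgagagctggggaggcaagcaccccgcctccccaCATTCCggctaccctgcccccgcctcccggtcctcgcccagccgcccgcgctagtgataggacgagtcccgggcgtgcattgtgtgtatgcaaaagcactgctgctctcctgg
Vgll4, chr6:114969154-114969453, minus strand: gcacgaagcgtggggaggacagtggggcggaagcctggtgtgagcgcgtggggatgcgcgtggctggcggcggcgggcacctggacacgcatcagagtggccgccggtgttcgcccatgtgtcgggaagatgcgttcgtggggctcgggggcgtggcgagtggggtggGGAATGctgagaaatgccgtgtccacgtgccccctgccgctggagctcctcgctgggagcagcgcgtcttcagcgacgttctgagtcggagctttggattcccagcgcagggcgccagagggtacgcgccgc
Counted from the gene start, the match began at position -141 in Yap1, at -136 in this window of Wwtr1, at -162 in Vgll1, at -63 in Vgll3 and at -82 in Vgll4. This Tead3 window had matches at -123, at -114 and at 3. The genes with a match included Tead3, which was not called, Yap1 with a fold of 1.19, Vgll3 with a fold of 2.88 and Vgll1, which was counted in YAP5SA libraries only. The letters are a description of these windows and were not tested as binding sites.

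Yap1, the gene whose product the transgene supplies in active form, was at 142, 138, 137 and 141 CPM in YAP5SA replicates 1 to 4 and at 113, 118, 108 and 133 CPM in Ctrl replicates 1 to 4. Every YAP5SA library lay above every Ctrl library, by a narrow margin over Ctrl replicate 4. The YAP5SA libraries were also closer to each other, with a coefficient of variation of 1.59% against 9.37% in Ctrl. The fold was 1.19 (95% confidence interval 1.06 to 1.33, edgeR adjusted p = 0.0111), and 38.1% of all tested genes had a higher log2 fold change. Leaving out Ctrl replicate 3 brought the log2 value to 0.19 and ended the call (edgeR adjusted p = 0.0711). The log2 value also depended on the scaling. It was 0.25 with TMM, 0.30 with upper quartile and 0.42 with library size scaling, and was called with each. The row cannot separate endogenous from transgenic reads, and how many transgenic reads it holds is not known. It was therefore not taken as a check of the genotype labels.

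Wwtr1 encodes TAZ, the paralogue of YAP. It was at 104, 103, 112 and 125 CPM in YAP5SA libraries and at 52.2, 65.7, 60.4 and 60.1 CPM in Ctrl libraries. The lowest YAP5SA library lay well above the highest Ctrl library. The fold was 1.86 (95% confidence interval 1.63 to 2.12, edgeR adjusted p = 9.06e-07). Wwtr1 counts came to 73.4%, 74.3%, 81.4% and 88.5% of the Yap1 counts of the same library in YAP5SA, and to 46.4%, 55.8%, 56.1% and 45.2% in Ctrl. The ratio of the coactivator transcripts thus did not overlap between the groups. Per kilobase of exon, its log2 value averaged 0.62 ± 0.13 in YAP5SA and -0.03 ± 0.17 in Ctrl (SD, n = 4 each), a difference of 0.65 (exact permutation test over libraries, two-sided, p = 0.0286, the smallest that 4 against 4 allows). Any complete separation of 4 from 4 libraries gives this p, and both genes were chosen with earlier results of these data known. The p therefore adds nothing to the lack of overlap. Libraries were taken as unpaired in this test. A ratio within a library needs no scaling between libraries. It does rest on the Yap1 row, and how much of the transgene's transcript that row counts is not known. Whether TAZ or YAP transcripts were the more abundant in YAP5SA depended on the gene length used. With the union of exons, Wwtr1 was at 23.2 ± 2.14 and Yap1 at 15.1 ± 0.239 CPM per kilobase in YAP5SA (SD, n = 4). With the longest transcript, Wwtr1 was at 23.6 and Yap1 at 26.4 CPM per kilobase in the same libraries.

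**Figure D2:**
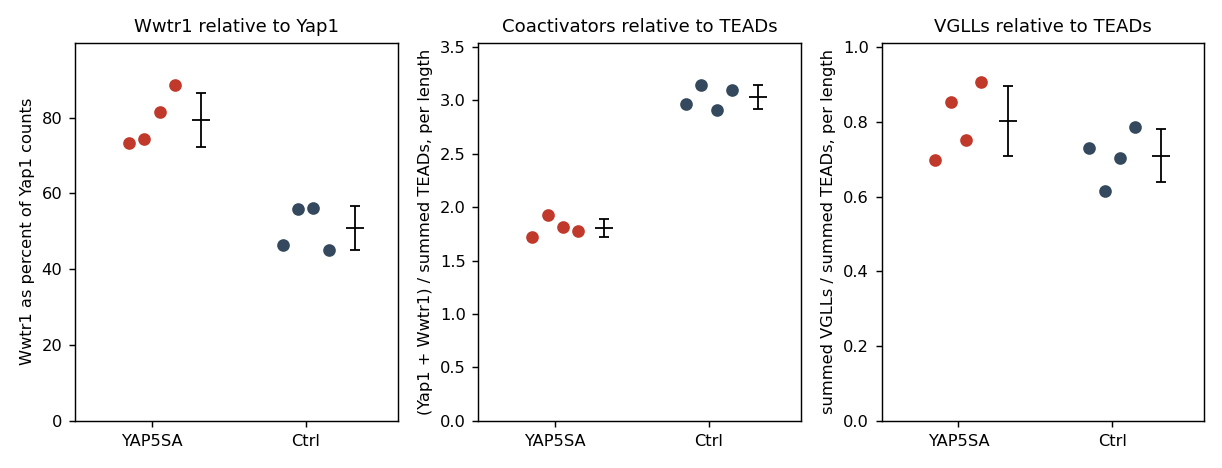
Left, Wwtr1 counts as a percentage of Yap1 counts in each library. Centre and right, the summed coactivator (Yap1 and Wwtr1) and summed VGLL levels divided by the summed TEAD level, all in CPM per kilobase of exon; points are libraries, bars are mean and SD (n = 4 each), YAP5SA left of Ctrl. The groups are apart in the left and centre panels and overlap in the right panel.

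Among the TEAD genes, Tead1 had the highest fold. Its product is known for its part in heart muscle, among other tissues. Tead1 was at 172, 146, 172 and 172 CPM in YAP5SA libraries and at 31.2, 39.6, 28.0 and 34.6 CPM in Ctrl libraries. Replicate 2 was the lowest YAP5SA library and was still far above every Ctrl library. The fold was 4.98 (95% confidence interval 4.26 to 5.83, edgeR adjusted p = 3.02e-10), and 4.36% of all tested genes had a higher log2 fold change. Tead4, a TEAD known from the trophectoderm of the early embryo, was at 18.4, 17.3, 16.6 and 27.5 CPM in YAP5SA libraries and at 8.23, 7.10, 7.71 and 9.82 CPM in Ctrl libraries. Replicate 4 stood above the other YAP5SA libraries, and the groups did not overlap. The fold was 2.43 (95% confidence interval 1.89 to 3.14, edgeR adjusted p = 1.53e-05).

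Tead2, known for its expression in early embryos, was at 7.08, 6.50, 6.49 and 3.78 CPM in YAP5SA libraries and at 6.71, 4.91, 7.50 and 5.08 CPM in Ctrl libraries. The YAP5SA values included the lowest of the 8, in replicate 4, and otherwise lay within the Ctrl range. Its fold of 0.98 had a 95% confidence interval of 0.711 to 1.35 (edgeR adjusted p = 0.916). Tead3, known from placenta, was at 15.4, 13.3, 16.4 and 14.6 CPM in YAP5SA libraries and at 12.1, 16.7, 17.2 and 15.9 CPM in Ctrl libraries. All YAP5SA values lay within the Ctrl range. Its fold of 0.962 had an interval of 0.794 to 1.17 (edgeR adjusted p = 0.718). Neither was called, and neither interval reaches the folds of Tead1 or Tead4. Scaled by library size alone, the point estimates of Tead2 and Tead3 turned positive, at 0.15 and 0.12 on the log2 scale, and were again not called.

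**Figure D3:**
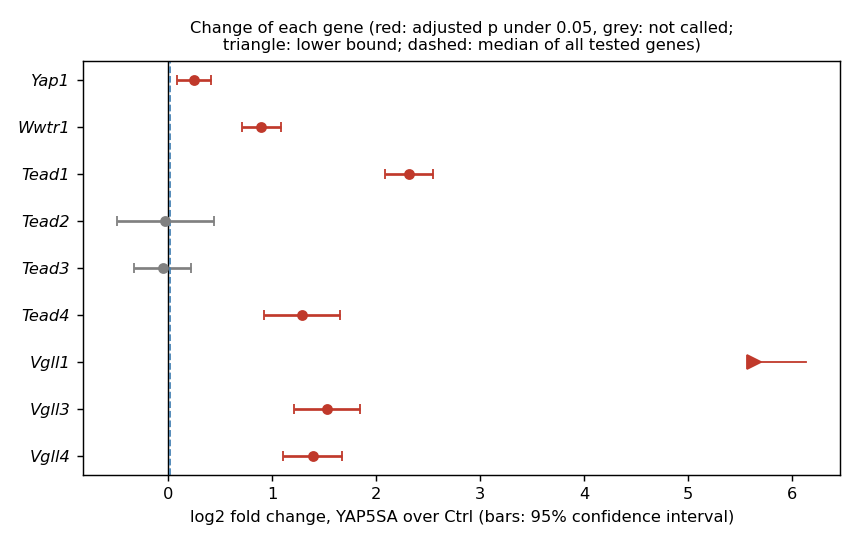
Log2 fold change of each gene, YAP5SA over Ctrl, with its 95% confidence interval from the edgeR fit over 8 libraries. Red marks genes called and grey marks genes not called; the triangle is the lower bound for Vgll1 (log2 of 5.64). The intervals of Tead1 and Tead4 lie above those of Tead2 and Tead3.

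The makeup of the TEAD pool differed accordingly. Per kilobase of exon, Tead1 made up 58.9%, 56.9%, 60.1% and 54.4% of the summed TEAD level in YAP5SA libraries and 29.5%, 34.7%, 24.8% and 29.3% in Ctrl libraries. In Ctrl and with the union of exons, Tead1, Tead3 and Tead4 were near each other, with overlapping libraries. They were at 2.46 ± 0.365, 2.31 ± 0.346 and 2.28 ± 0.324 CPM per kilobase (SD, n = 4). With the longest transcript they were further apart in Ctrl, at 3.35, 4.50 and 2.67 CPM per kilobase. With the union of exons, the Tead3 share was 10.5% ± 0.929 in YAP5SA and 27.7% ± 3.37 in Ctrl (SD, n = 4 each). The Tead2 share was 5.96% ± 1.74 in YAP5SA and 15.3% ± 3.59 in Ctrl (SD, n = 4 each). The groups did not overlap in these shares. For Tead4 they did, with a share of 25.9% ± 4.83 in YAP5SA and 27.5% ± 3.55 in Ctrl. The lower shares of Tead2 and Tead3 stood beside levels that were not called, in a pool that was larger. The summed TEAD level was 21.2 ± 1.80 CPM per kilobase in YAP5SA and 8.31 ± 0.384 in Ctrl (SD, n = 4 each), a ratio of 2.55, and without Tead1 the sums were 9.01 ± 1.11 in YAP5SA and 5.85 ± 0.421 in Ctrl.

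**Figure D4:**
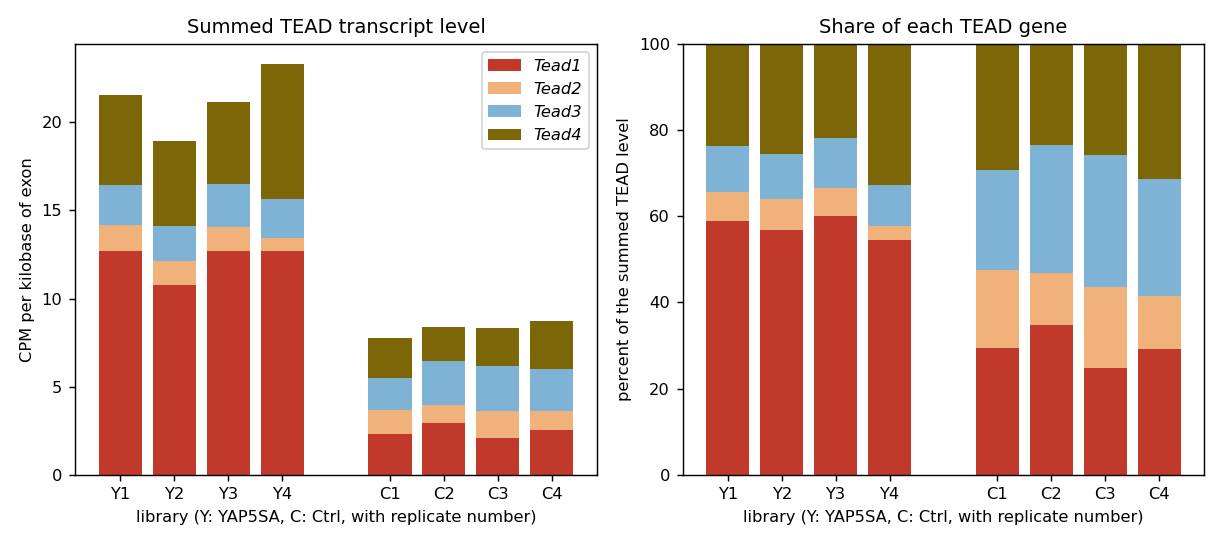
Left, TEAD transcript level (CPM per kilobase of exon) in each library, stacked by gene, and right, the same as a percentage of the library's summed TEAD level. YAP5SA libraries 1 to 4 (Y) are left of Ctrl libraries 1 to 4 (C). The Tead1 share was 54.4% to 60.1% in YAP5SA and 24.8% to 34.7% in Ctrl.

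As counted, the coactivator transcripts differed by a smaller ratio than the TEAD transcripts. The summed Yap1 and Wwtr1 level was 38.3 ± 2.22 CPM per kilobase in YAP5SA and 25.2 ± 1.82 in Ctrl (SD, n = 4 each), a ratio of 1.52. For each unit of summed TEAD there were 1.81 ± 0.0849 units of coactivator in YAP5SA and 3.03 ± 0.111 in Ctrl (SD, n = 4 each), and the groups did not overlap with either gene length. With the longest transcript these values were 1.72 in YAP5SA and 2.84 in Ctrl. No p is given for these sums, since they run over chosen genes. The coactivator sum includes the Yap1 row, and how much of the transgene's transcript that row counts is not known. These ratios therefore describe counted reads, and not all coactivator transcript in YAP5SA.

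VGLL genes, whose products compete with YAP and TAZ for TEAD or bind it in their place, were higher as well. Vgll3, studied mostly in muscle and skin, was at 55.8, 55.8, 59.7 and 82.1 CPM in YAP5SA libraries and at 18.8, 21.3, 19.9 and 28.3 CPM in Ctrl libraries. Replicate 4 was the highest library in each group. The fold was 2.88 (95% confidence interval 2.31 to 3.59, edgeR adjusted p = 7.17e-07). Vgll4, known as an antagonist of YAP at TEAD and a growth suppressor in gastric cancer cells, was at 35.2, 39.5, 35.4 and 48.1 CPM in YAP5SA libraries and at 16.5, 11.8, 16.6 and 15.5 CPM in Ctrl libraries. The groups were again apart. The fold was 2.62 (95% confidence interval 2.15 to 3.19, edgeR adjusted p = 5.67e-07).

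Vgll1, a cofactor known from placenta and from basal-type carcinomas, was counted 38, 46, 43 and 33 times in the YAP5SA libraries and 0 times in each Ctrl library. With a floor of 3 counts over the Ctrl group, and TMM-scaled totals of 82024479 counts in YAP5SA and 76578648 counts in Ctrl, it was at least 49.8-fold higher in YAP5SA (edgeR adjusted p = 1.91e-06). This bound covers counting error in Ctrl only. Vgll1 passed the filter on low counts through its YAP5SA libraries alone, so its p adds nothing to the counts. At 1.98 ± 0.431 CPM (SD, n = 4) it was the least abundant of the 9 in YAP5SA, and 91.7% of tested genes had a higher mean level. Vgll1 lies on the X chromosome, and genotype and the sex-linked transcripts above cannot be told apart here either. For Vgll2, 0 counts in a library allow up to 0.125 to 0.178 CPM, which covers counting error only. The summed VGLL level was 17.1 ± 2.73 CPM per kilobase in YAP5SA and 5.90 ± 0.702 in Ctrl (SD, n = 4 each). Relative to summed TEAD it was 0.803 ± 0.0939 in YAP5SA and 0.71 ± 0.0714 in Ctrl, and these overlapped. The ratio of Vgll4 alone to summed TEAD was 0.346 ± 0.0456 in YAP5SA and 0.337 ± 0.0578 in Ctrl, also overlapping. With the longest transcript as length this ratio was 0.617 in YAP5SA and 0.561 in Ctrl, and the groups overlapped again.

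By level per kilobase of exon, the order in YAP5SA was Wwtr1, Yap1, Tead1, Vgll3, Vgll4, Tead4, Tead3, Tead2 and Vgll1. Libraries overlapped between the neighbours Tead1 and Vgll3, Vgll3 and Vgll4, Vgll4 and Tead4, and Tead2 and Vgll1. In Ctrl it was Yap1, Wwtr1, Vgll3, Vgll4, Tead1, Tead3, Tead4, Tead2 and Vgll1, with overlap between Yap1 and Wwtr1 and along the whole run from Vgll3 to Tead4. Tead1 thus had rank 3 in YAP5SA and rank 5 in Ctrl, with the union of exons as length. With the longest transcript it had rank 4 in YAP5SA, behind Vgll4, and rank 5 in Ctrl.

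Genes around the TEAD complex did not move as a block. Of the YAP/TEAD target genes 24 were tested, and among them 17 rose, 3 fell and 4 did not pass, with a median log2 fold change of 1.17. The 3 highest were Tgfb2, Ccn1 and Rbms3. Tgfb2, which encodes a TGF-beta ligand, was at a log2 fold change of 7.60. It had 946 to 1150 counts in each YAP5SA library and only 3 to 9 in each Ctrl library. The size of its change is therefore loosely known, and no SE is given for it. Ccn1, a matricellular protein gene, was at 3.76 (SE 0.09), and Rbms3, an RNA-binding protein gene, at 3.70 (SE 0.28). The 3 lower were Areg, an EGF receptor ligand, at -1.54 (SE 0.11), the guanine nucleotide exchange factor gene Dock5 at -0.41 (SE 0.10) and the ecto-nucleotidase gene Nt5e at -0.32 (SE 0.11). Leaving out Ctrl replicate 2 ended the Nt5e call (edgeR adjusted p = 0.0504), as did leaving out YAP5SA replicate 1 (edgeR adjusted p = 0.0714). Scaled by library size alone, neither Dock5 (adjusted p = 0.0581) nor Nt5e (adjusted p = 0.239) was called.

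Kinases, upstream scaffolds and regulators of the kinases, some of which restrain YAP and TAZ and some of which (such as Ajuba and Limd1) restrain LATS, were called in either direction at about the shares of all genes. Among the 28 that were tested, 10 rose, 9 fell and 9 did not pass, with a median of 0.08. The scaffold gene Frmd6 was at 87.7 ± 2.99 CPM in YAP5SA and 12.8 ± 1.47 CPM in Ctrl (log2 fold change 2.78), the YAP kinase gene Lats2 at 48.0 ± 2.73 CPM in YAP5SA and 13.9 ± 1.06 CPM in Ctrl (1.79), and the kinase gene Stk3 at 39.0 ± 2.84 CPM in YAP5SA and 19.5 ± 1.98 CPM in Ctrl (1.002) (SD, n = 4 each). In the other direction, Tnik fell by 2.45, Mob1b fell by 1.15 and Mink1 fell by 1.06 on the log2 scale. Tnik and Mink1 encode kinases of the MAP4K group, and Mob1b encodes an activator of LATS. Related genes were called in the other direction. Lats1 fell by 0.27, to 53.7 CPM in YAP5SA from 65.0 CPM in Ctrl. Mob1a rose by 0.22, to 318 CPM in YAP5SA from 274 CPM in Ctrl. Map4k3 and Map4k5 rose by 0.32 and 0.44 on the log2 scale.

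Of 14 genes for proteins that bind YAP or TAZ in the cytoplasm or act in their turnover, 7 were higher, 5 lower and 2 not called, with a median of 0.12. Amotl2, an angiomotin that retains YAP at junctions, was at 360.1 ± 19.6 CPM in YAP5SA and 71.8 ± 3.92 CPM in Ctrl (SD, n = 4 each). The casein kinase gene Csnk1e rose by 1.55 and the phosphatase gene Ptpn14 by 1.38 on the log2 scale. Ywhab and Ywhaz, which encode proteins that bind phosphorylated YAP, fell by 0.83 and 0.51 on the log2 scale. Related genes of the list were called in the other direction. Ywhae rose by 0.22, to 763 CPM in YAP5SA from 654 CPM in Ctrl, and Csnk1d fell by 0.24 on the log2 scale.

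Genes for nuclear partners of YAP and TEAD were mostly lower or not called. Among the 17 that were tested, 1 rose, 8 fell and 8 did not pass, with a median of -0.19. Smad3, a TGF-beta signal transducer, was the 1 that rose, by 0.71 (SE 0.07). The AP-1 subunit genes Fosl1 and Fosl2 fell by 1.88 (SE 0.37) and by 0.77 (SE 0.12), and the MADS-box factor gene Mef2d fell by 0.95 (SE 0.12). Counts in these lists are read against 33.1% higher and 31.3% lower of all genes, and the lists share members, such as Lats2, Amotl2, Ptpn14 and Ajuba.

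**Figure D5:**
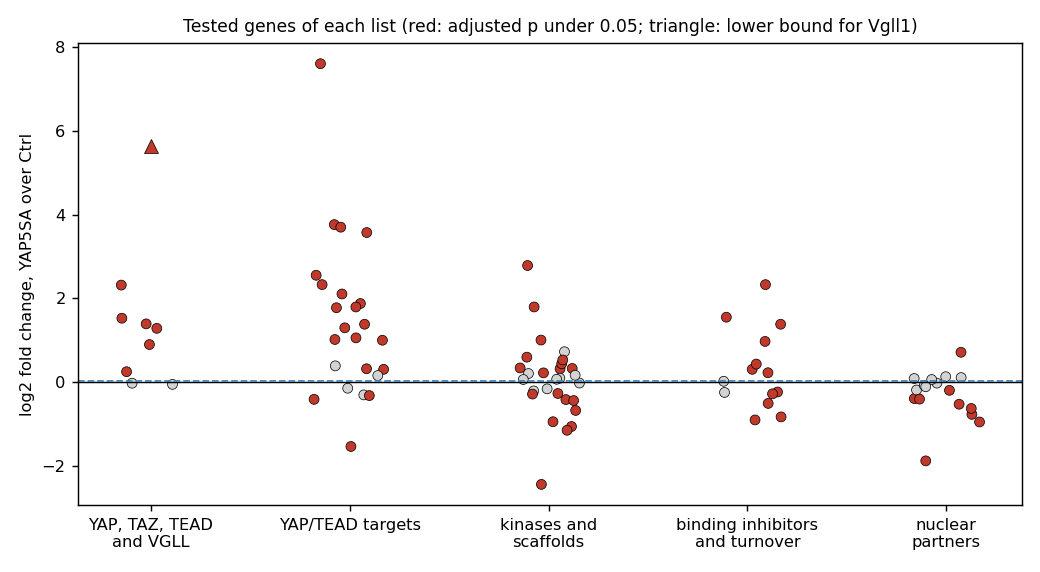
Log2 fold change, YAP5SA over Ctrl, of each tested gene in the 9 described here and in 4 lists of genes around them. Red points were called, grey points were not; the triangle is the lower bound for Vgll1, and the dashed line is the median of all tested genes (0.02). Medians were 1.28, 1.17, 0.08, 0.12 and -0.19 from left to right.

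Genes with profiles most like those of Yap1, Wwtr1 and Tead1 were found by the root mean square difference of log2 CPM over the 8 libraries, each profile centred on its mean. Nearest to Tead1 were Amotl2, at a difference of 0.14, Emp2, an epithelial membrane protein gene, at 0.15, and Ddah1, a dimethylarginine hydrolase gene, at 0.16. Nearest to Wwtr1 were the cholesterol transporter gene Npc1 at 0.05, the purinergic receptor gene P2ry2 at 0.07 and the RNA-binding protein gene Rbms1 at 0.08. Nearest to Yap1 were Tbc1d17 and Tab2 at 0.04 and Spats2 at 0.05. Their calls varied with the processing: Tbc1d17, not called here (edgeR adjusted p = 0.0604), was called with library size or upper quartile scaling, with limma-voom and without Ctrl replicate 4. The calls of Tab2 and Spats2 ended without Ctrl replicate 1, 2 or 3 (edgeR adjusted p from 0.0531 to 0.0861), and that of Spats2 also without YAP5SA replicate 1 (edgeR adjusted p = 0.0702). In all of these the profile is mostly the step between the groups, and differences of this size among 13812 genes are a description.

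Epithelial markers were abundant in all libraries, although several were lower in YAP5SA. All 12 were tested, 3 higher and 8 lower, with summed levels of 10821 to 12622 CPM in YAP5SA and 19640 to 22077 CPM in Ctrl. Of 16 mesenchymal markers 1 was tested, the rest being under the count filter, and their summed level was 1.73 to 2.55 CPM in YAP5SA and 1.24 to 2.12 CPM in Ctrl. Col1a2, Col6a3, Lum and Twist2 had 0 counts in all libraries, as did Sox10 and Elavl4 of the neural and glial list. The 8 endothelial markers, none of which was tested, summed to 1.04 to 1.28 CPM in YAP5SA and 0.949 to 2.12 CPM in Ctrl, and the 9 neural and glial markers (1 higher and 2 lower of 4 tested) to 3.63 to 4.87 CPM in YAP5SA and 5.44 to 6.99 CPM in Ctrl. Immune markers summed to 68.3 to 74.5 CPM in YAP5SA and 9.02 to 18.2 CPM in Ctrl, nearly all of it Cd68 and Csf1r, which rose with Lyz2 as the 3 of 10 that were tested, while, among those under the filter, Itgam had 53 counts in YAP5SA and 5 in Ctrl over 4 libraries each, the pan-leukocyte gene Ptprc had 3 in YAP5SA and 15 in Ctrl, and Adgre1 had 0 counts in all libraries. Of 6 mesothelial-type markers, Upk3b and Wt1 were higher and Msln and Upk1b were lower, and the sum of 2993 to 3304 CPM in YAP5SA and 3676 to 4322 CPM in Ctrl was mostly Msln. The part of these lists in the values of the 9 genes was not tested.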

How the data were processed

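RNA of 4 YAP5SA and 4 Ctrl organoid cultures was sequenced from both ends (150 bases each), per the labels' protocols. The table the authors deposited holds raw counts per gene. Per the submitters' processing notes, the tools were HISAT2 2.0.1, HTSeq 0.6.1 and cutadapt, with the build mm9. The sources used here do not give the annotation, the strand setting or the treatment of reads shared between paralogues. Of 56691 rows, 3521 carry an Ensembl identifier only. In GENCODE M21 (GRCm38), exons of 2 members overlap an opposite-strand gene, Gm20416 for Yap1 (3 counts in YAP5SA, 0 in Ctrl) and Cd37 for Tead2 (0 in YAP5SA, 8 in Ctrl). Lengths were taken from the same annotation.

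The test was run with edgeR 4.0.16 under R 4.3.3 (filterByExpr with a minimum count of 10 and total of 15, TMM scaling, quasi-likelihood F test, two-sided, Benjamini-Hochberg over 13812 genes, threshold 0.05). SEs are the log2 fold change over the square root of F. The procedure was also run on simulated counts in which few genes differed, unlike in these data. That run does not bear on the scaling used here. Every member was named. From each list the 3 highest and 3 lowest called genes were named, and for 3 members the 3 nearest profiles. Lats1, Mob1a, Map4k3, Map4k5, Ywhae and Csnk1d were named as well, beside related genes called in the other direction. Some genes that this rule or the lists would name are not reported here. Members and lists were chosen with earlier results of these data known. Replicates differed by a chi-square per degree of freedom of 4.94 to 38.3, so all were counted. Alternatives were RLE, upper quartile and library size scaling, DESeq2 1.42.0, limma-voom (limma 3.58.1), other filters, a replicate block, gene sets left out and each library left out. Protein sequences were not used here.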

Additional observations from a re-analysis of the deposited data

Results flagged for a closer look

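In 27 sets of 4 library values, 1 value stood apart from the other 3 by Dixon's criterion in 3 sets, where chance gives about 1 in 20 sets. Tead1 in YAP5SA replicate 2 was at 146.1 CPM, against 172 CPM in each of the other YAP5SA libraries. Tead4 in YAP5SA replicate 4 was at 27.5 CPM, with the other YAP5SA libraries at 16.6 to 18.4 CPM. Vgll3 in YAP5SA replicate 4 was at 82.1 CPM, with the others at 55.8 to 59.7 CPM. Without replicate 4 of YAP5SA, the log2 fold changes were 1.08 for Tead4 and 1.37 for Vgll3, and the edgeR calls stood. The same library had the highest Wwtr1 and Vgll4 and the lowest Tead2 and Vgll1 values of its group.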

How the results depend on the processing

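Of 447 values recomputed under the alternatives, 433 were taken as unchanged. Fold changes and the Wwtr1 to Yap1 ratio among these stayed on their side of the threshold and in direction. Counts of genes stayed within 1.5 times the reported count, in which single calls could change. TEAD shares, which have no threshold, kept their direction but could shift. The Tead4 share differed by -3.81 to -0.145 percentage points with 1 library left out, against -1.51, and was taken as unchanged. The rest of the 447 values are given here. The Yap1 log2 fold change was 0.19 to 0.29 with 1 library left out, and its call ended without Ctrl replicate 3 (0.19, edgeR adjusted p = 0.0711), so that 6 to 7 members were called. Tead2, never called, turned positive with library size scaling (0.15), with upper quartile scaling (0.0254), without Ctrl replicate 3 (0.08) and without YAP5SA replicate 4 (0.13), its range with 1 library left out being -0.13 to 0.13. Tead3, never called, was at 0.12 with library size scaling. With the longest transcript as length, the Tead3 share differed by -21.6 percentage points in place of -17.2 and the Tead4 share by 0.338 in place of -1.51. Of the mesenchymal markers 5 were called with no filter, 0 with a 1 CPM filter and 1 to 2 with 1 library left out, and of the neural and glial markers 1 was called with the 1 CPM filter. Library size scaling shifted the median of all genes to 0.19 and gave 5739 higher and 3205 lower, so that 64.2% of calls were higher, in place of 51.4%; the causes of these changes were not tested.

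With replicate numbers as a block, edgeR called 9174 genes and 7 members, Yap1 among them (log2 fold change 0.25, adjusted p = 0.00723), and the Wwtr1 to Yap1 ratio still differed by 0.65 (exact sign-flip permutation test, p = 0.125, the smallest that 4 pairs allow). Same-numbered libraries correlated at 0.0463 to 0.281 in their deviations, and 4 of 8 libraries correlated best with their own number. This does not settle whether the numbers pair the cultures. The main tests took the libraries as unpaired, since the sources used here do not say that the numbers are pairs. The p of the ratio depends on this choice. At this depth, Vgll2 and the marker genes under the filter could not be tested.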
